A study of Homo sapiens with 12 samples.

Results

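R5020 (promegestone) is a synthetic progestin, and the comparison described here asked what it did to cells that have no progesterone receptor (PR) for it to bind. The arrays used were the 4 of PR-null cells among the 12 of the series, 2 from cells given R5020 and 2 from cells given vehicle, chosen by their labels. Gene expression was measured on Illumina HT-12v4 bead arrays in T47D-Y cells, a subline of the luminal T47D breast cancer line that has lost PR. PR-null cells carried the empty pIRES-neo3 vector. The other lines carried the same vector with wild-type PR-B (WT) or with K388R PR-B (KR), a receptor that cannot be SUMOylated at the mutated lysine. Each line was grown from single-cell clones kept in G418, so that a difference between lines can also be a difference between clones. All cells were starved of serum for a day and then given R5020, at a single concentration, or ethanol for 6 h. The 6 groups, R5020 and vehicle in PR-null, WT and KR cells, held 2 arrays each from duplicate experiments.

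Steroid receptors are transcription factors that wait in the cell, many of them in a complex with heat shock proteins, until a hormone binds them. PR, the glucocorticoid receptor and the mineralocorticoid receptor belong to a subfamily that recognises the same DNA element, a palindrome of the half-site TGTTCT, and shares many target genes. Synthetic progestins can bind other members of the subfamily with an affinity that depends on the compound. Progestins are also thought to act at the cell surface, through the PAQR family of membrane receptors and through PGRMC proteins. A line without PR shows what remains of the response when these other receptors are all that the ligand can meet.

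The arrays were much alike in PR-null cells. R5020 and vehicle arrays of PR-null cells correlated at 0.9957 to 0.9962 over genes above the background limit on at least 2 of the 12 arrays, which is the range of replicate arrays of one group (0.9956 to 0.9964). The same correlation was 0.9746 to 0.9754 for WT cells, while KR cells gave 0.979 to 0.980. Values are log2 intensities, and the background limit of 6.09 is the 95th percentile of 457 probes for olfactory receptor genes. By this limit 11468 of 20046 genes were above background on both arrays of a PR-null group, and between 44.3% and 44.4% of all probes were above it on each of the 12 arrays. All 18 luminal markers measured, such as KRT8, KRT18, GATA3 and FOXA1, were above background in PR-null cells, at mean levels of 10.94 to 10.96 on R5020 arrays and 10.90 to 10.97 on vehicle arrays. Basal and mesenchymal markers were not all silent: 5 of the 12 measured were above background in PR-null cells, with group means of up to 10.07. Of 9 leukocyte markers CD68, LYZ and FCGR3A were above background, and PTPRC was not. COL1A1 was the single member above background among 12 endothelial and fibroblast markers. With 2 arrays in a group, p-values measure the spread between duplicate samples, which may be technical where the duplicates shared a culture. That spread was pooled over the 6 groups and drawn toward a value common to all probes (37.1 prior against 6 residual degrees of freedom). The p-values and intervals thus reflect mostly the typical spread of all probes.

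No gene passed in PR-null cells with R5020 by the study's rule, a log2 difference over 0.6 (1.52-fold) with an adjusted p under 0.01. By limma, 0 of 20046 genes were called higher and 0 lower (0% called), and the lowest adjusted p of any gene was 0.506. An unadjusted p under 0.05 was reached by 937 genes (4.67%), of which 508 (2.53%) were higher and 429 (2.14%) lower with R5020. The same ligand at the same time called 661 genes higher (3.3%) and 400 lower (2%) in WT cells, 5.29% in all. In KR cells 541 were called higher (2.7%) and 276 lower (1.38%), 4.08% in all. Differences in PR-null cells ran between -0.68 and 0.58 over all genes, whereas they ran between -3.53 and 5.82 in WT cells and between -3.00 and 5.20 in KR cells. Their standard deviation over genes above background was 0.115 in PR-null cells, 0.388 in WT cells and 0.343 in KR cells. Both R5020 arrays lay above both vehicle arrays for 3481 genes (17.4%) and under both for 3187 (15.9%). Among the genes above background 521 (4.54%) had an unadjusted p under 0.05, 291 of them higher (2.54%) and 230 lower (2.01%), and the arrays did not overlap for 2024 higher (17.6%) and 1860 lower (16.2%).

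**Figure D1:**
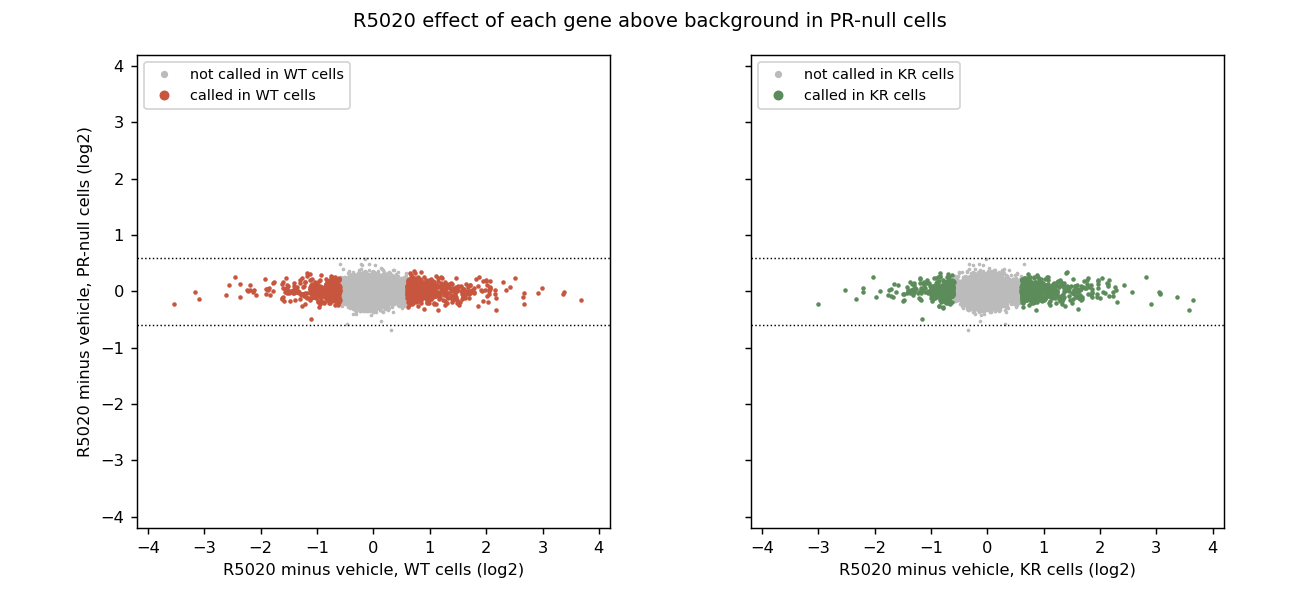
R5020 minus vehicle differences (log2) in PR-null cells on the vertical axis against those in WT cells (left) and KR cells (right), 1 point for each of the 11468 genes above background in PR-null cells, with genes called in the PR-B line in colour and dotted lines at 0.6 either way. The clouds are wide along the PR-B axis and flat along the PR-null axis, where only the probe for MIR1282 (-0.68) lies outside the dotted lines.

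The effect sizes that the 4 arrays leave can be read from the 95% intervals of the differences. Over genes above background the median half-width was 0.228 log2 units, a factor of 1.17. The whole interval lay inside 0.6 either way for 11434 of 11468 genes (99.7%) and inside 1 for all 11468. An intensity change of 1.52-fold thus lay outside the interval of all but 34 genes, and a 2-fold one outside every interval. These limits are on array intensity, which near background can change less than the transcript does. For genes near background a larger change of the transcript was thus not excluded. At 0.3 log2 units the interval held inside the limit for 5289 genes (46.1%). The highest upper end of any gene was 0.89 and the lowest lower end -0.99. Interval widths rest on a spread largely shared over probes, and can be too narrow for a gene with a wide spread of its own. ZDHHC5 had an SD of 0.71 between its vehicle arrays and a standard error of 0.153. Its difference was 1.08 without vehicle replicate 2. With intervals widened by the Bonferroni method to cover these 11468 genes together, the median half-width was 0.595 (1.51-fold). These wider intervals lay inside 0.6 for 818 genes and inside 1 for 11435, with 33 genes outside. A lone responding gene would have needed a difference of about 0.70 (1.62-fold) at the median standard error to pass the adjusted p. Smaller responses of single genes were not detectable with this number of arrays.

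**Figure D2:**
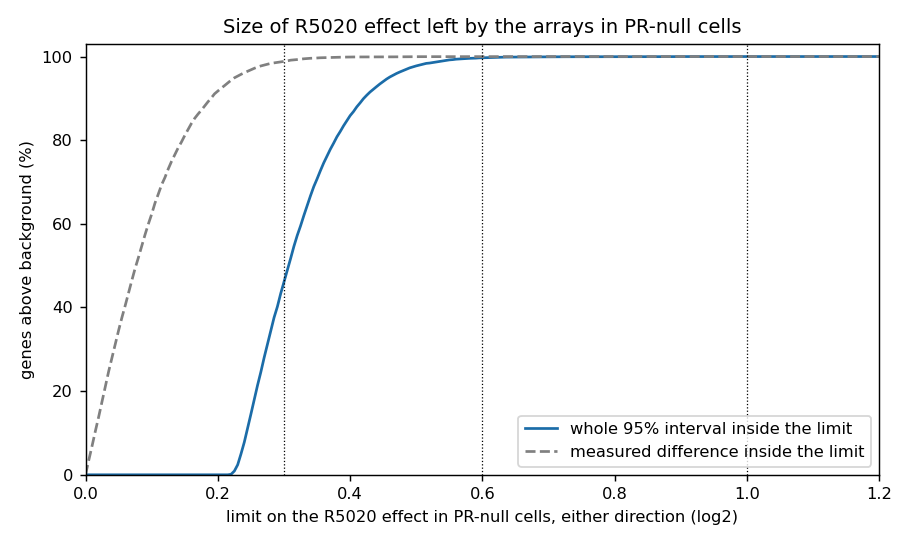
Share of the 11468 genes above background in PR-null cells (%, vertical axis) whose measured difference (dashed line) or whole 95% interval (solid line) lies within a limit on the R5020 effect (log2, horizontal axis, either direction), with dotted lines at 0.3, 0.6 and 1. The solid line reaches 46.1% at 0.3, 99.7% at 0.6 and 100% at 1.

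The receptors that could bind the ligand were examined first. PGR, the gene of PR, read 5.44 and 5.45 with R5020 in PR-null cells, against 5.38 and 5.46 with vehicle, all under the background limit (probe ILMN_1811014). In WT cells its means were 7.59 with R5020 and 8.55 with vehicle, and in KR cells 9.69 with R5020 and 8.91 with vehicle. NR3C1, the glucocorticoid receptor gene, read 6.22 and 5.83 with R5020 and 5.87 and 6.14 with vehicle in PR-null cells, so that each group had 1 array above the limit and 1 under it. Its log2 difference was 0.02 (95% interval -0.25 to 0.29), and its remaining probes, ILMN_1812384 and ILMN_2389347, were under the limit on all 4 PR-null arrays. The level of NR3C1 with vehicle was -0.06 relative to WT cells and -0.04 relative to KR cells (adjusted p = 0.907 and 0.939). NR3C2, the mineralocorticoid receptor gene, also stood at the limit, at 6.21 and 6.08 with R5020 and 6.21 and 5.97 with vehicle. The genes of the pregnane X receptor NR1I2 and of PGRMC1 are not analysed here. An array level near background bounds the transcript, and says little of the protein.

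Other receptors were plainly expressed, and none was called. Of 40 nuclear receptor genes measured, 20 were above background in PR-null cells, none was called, none had an unadjusted p under 0.05, and all 40 intervals lay inside 0.6. ESR1, the estrogen receptor alpha gene, read 7.26 and 6.96 with R5020, against 7.23 and 7.31 with vehicle, a difference of -0.16 (-0.39 to 0.07). R5020 lowered ESR1 in WT cells (-1.39, adjusted p = 5.27e-13) and in KR cells (-1.47, adjusted p = 1.06e-13). VDR, the vitamin D receptor gene, read 8.48 and 8.38 with R5020 and 7.96 and 8.43 with vehicle in PR-null cells, and the groups overlapped. It rose by 2.51 in WT cells (adjusted p = 2.26e-20) and by 2.03 in KR cells (adjusted p = 3.24e-17). RARA, RXRA and PPARG, the genes of retinoid and fatty acid receptors, fell in KR cells (-0.75, -0.84 and -0.83) and in WT cells (-0.62, -0.56 and -0.75). The RXRA fall in WT cells did not reach the limit of 0.6. In PR-null cells these genes differed by 0.00, 0.06 and 0.01. RXRA was among the receptors with the highest levels, at 10.21 and 10.25 with R5020 and 10.14 and 10.20 with vehicle.

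The PR-null clone also differed from the PR-B clones before any ligand. With vehicle, 338 genes were called higher in PR-null than in WT cells (1.69%) and 295 lower (1.47%), 3.16% in all. Relative to KR cells 319 were higher (1.59%) and 203 lower (1.01%), 2.6% in all. Among the nuclear receptor genes these were PGR, ESR1 and VDR. ESR1 was lower in PR-null than in WT cells (log2 difference -1.62, adjusted p = 8.66e-15) and lower than in KR cells (-1.47, adjusted p = 3.11e-13). VDR was higher in PR-null cells, by 0.86 relative to WT (adjusted p = 1.90e-06) and 0.70 relative to KR (adjusted p = 0.000103). PR status and the clone cannot be told apart in these differences.

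Of 9 membrane progestin receptor genes and relatives measured, 7 were above background in PR-null cells. PGRMC2, a heme-binding protein of the endoplasmic reticulum, was bright, at 10.64 and 10.51 with R5020 and 10.36 and 10.53 with vehicle. NENF, a secreted protein of the same family, read 11.00 and 11.14 with R5020 and 11.17 and 11.21 with vehicle. PAQR7, membrane progestin receptor alpha, read 7.60 and 7.49 with R5020 and 7.71 and 7.69 with vehicle, and both R5020 arrays were lower. Its difference was -0.15 (-0.40 to 0.09). PAQR6 and PAQR8 differed by -0.07 and 0.00. None of the 9 was called, and none was called in WT or KR cells.

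**Figure D3:**
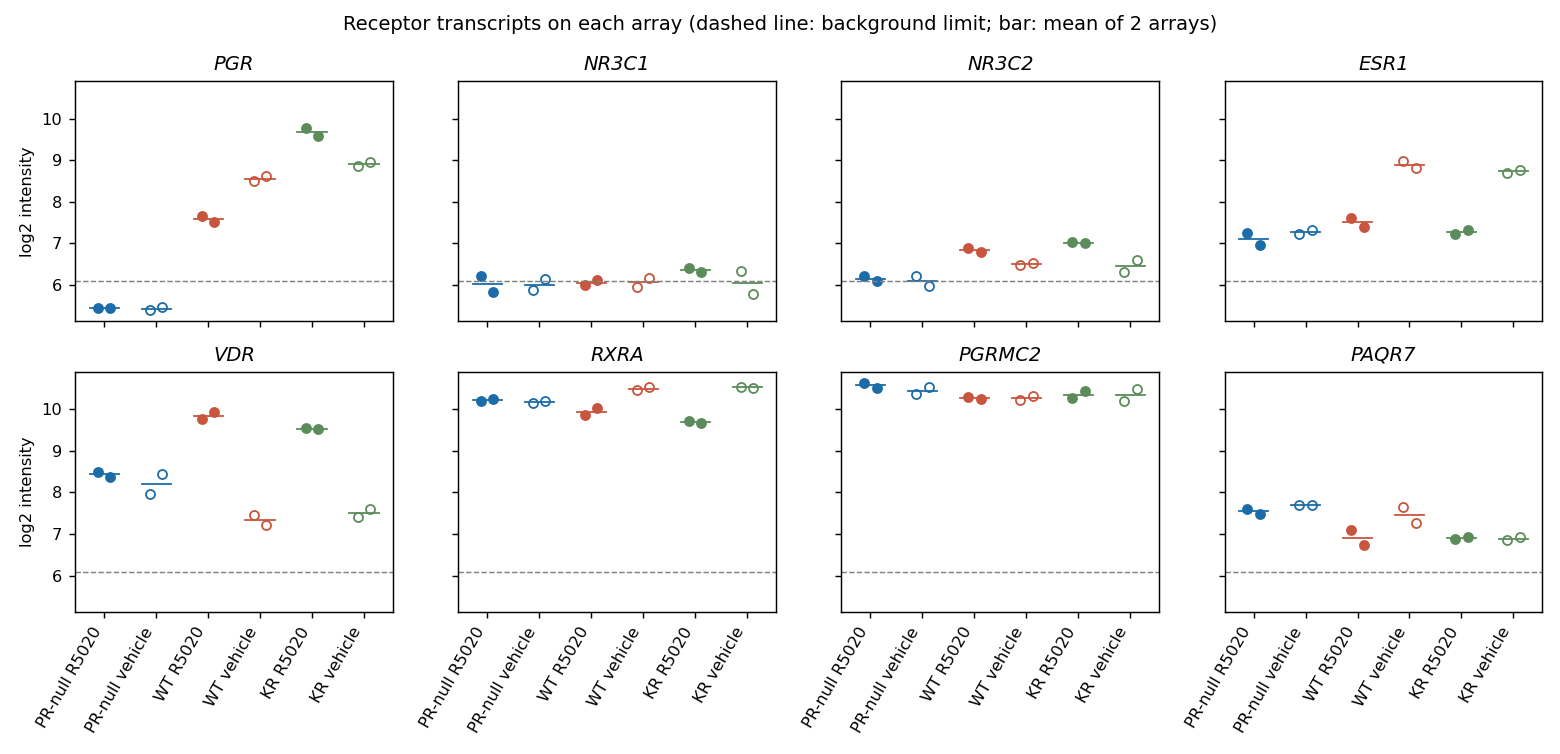
Log2 intensity (vertical axis) of 8 receptor genes on each of the 12 arrays, with filled points for R5020, open points for vehicle, a bar at the mean of 2 arrays and a dashed line at the background limit of 6.09. In PR-null cells PGR lies under the limit at 5.38 to 5.46 and NR3C1 around it, while ESR1, VDR, RXRA, PGRMC2 and PAQR7 lie above it with the R5020 and vehicle points close together.

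The chaperones that hold steroid receptors ready for hormone were all expressed. Each of the 12 measured was above background, and 0 were called in PR-null cells. HSP90AA1, the inducible HSP90, read 13.68 and 13.84 with R5020 and 13.89 and 13.93 with vehicle. FKBP4, the immunophilin FKBP52 of the receptor complex, read 10.20 and 9.89 with R5020 and 10.25 and 10.20 with vehicle. PTGES3, the p23 cochaperone, had the lowest difference of the list, -0.24 (-0.50 to 0.03).

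Glucocorticoid-induced genes form the most direct readout of a progestin acting on the glucocorticoid receptor. Of 39 such genes measured, 30 were above background in PR-null cells and 0 were called. Their median difference was 0.023, against 0.0032 over all genes, and -0.0059 without R5020 replicate 1. An unadjusted p under 0.05 was reached by 2 of them in the higher direction and by 4 in the lower, beside 2.53% and 2.14% of all genes. PER1 was the lowest of the list (-0.33, unadjusted p = 0.0123 by limma). It read 5.43 and 5.54 with R5020 and 5.67 and 5.96 with vehicle, all under the background limit. All 39 intervals lay inside 0.6. In WT cells 13 of the 39 were called higher and 1 lower, beside 3.3% and 2% of all genes. In KR cells 16 were called higher and 1 lower, beside 2.7% and 1.38% of all genes. The difference between the R5020 effects in PR-null and WT cells was called for 11 in the lower and 1 in the higher direction, beside 3.09% and 2.13% of all genes. For KR cells the counts were 15 and 1, beside 2.47% and 1.27% of all genes.

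FKBP5, a cochaperone and a sensitive target of glucocorticoids and progestins alike, was the plainest case. It read 9.24 and 9.24 with R5020 in PR-null cells, against 9.34 and 9.33 with vehicle. Both R5020 arrays thus lay slightly under both vehicle arrays, by -0.10 (-0.35 to 0.15). In WT cells R5020 raised FKBP5 by 2.66 (adjusted p = 2.85e-21) and in KR cells by 3.36 (adjusted p = 6.26e-25). TSC22D3, the glucocorticoid-induced leucine zipper GILZ, read 8.72 and 8.70 with R5020 and 8.79 and 8.87 with vehicle (-0.11, interval -0.34 to 0.11). Its effects in WT and KR cells were 1.33 and 1.14. A dimmer TSC22D3 probe that also responded in WT and KR cells (1.42 and 0.87), ILMN_2376403, read 7.87 and 7.80 with R5020 and 7.60 and 7.75 with vehicle in PR-null cells. There both R5020 arrays were higher (0.16, unadjusted p = 0.157 by limma), so the probes differed in sign. PDK4, which phosphorylates and so inactivates pyruvate dehydrogenase, read 6.19 and 6.03 with R5020 and 6.56 and 6.31 with vehicle, a difference of -0.33 (-0.56 to -0.09), opposite in sign to its rise by 2.17 in WT and 3.57 in KR cells. CEBPD, a transcription factor, differed by 0.02, ZBTB16, the PLZF gene, by 0.03, STOM, the gene of the membrane protein stomatin, by -0.03, and NFKBIA, the inhibitor of NF-kappaB, by 0.12. RGS2, a regulator of G protein signaling, differed by -0.11.

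Among the 10 glucocorticoid-induced genes with the strongest effects in WT and KR cells, 2 had an interval above 0 in PR-null cells. SGK1, the serum and glucocorticoid regulated kinase, read 7.27 and 7.14 with R5020 and 6.88 and 7.03 with vehicle. Both R5020 arrays were higher, by 0.25 (0.02 to 0.49), with an adjusted p of 0.978. It rose by 1.87 in WT and 2.81 in KR cells. The SGK1 probes ILMN_3229324 and ILMN_3305938, which responded in WT cells by 1.70 and 1.61, differed by -0.09 and -0.0025 in PR-null cells. TNFAIP3, the gene of the NF-kappaB feedback inhibitor A20, read 6.34 and 6.25 with R5020 and 5.94 and 5.95 with vehicle. Its vehicle values were under the background limit, its difference was 0.35 (0.12 to 0.58), and its effects in WT and KR cells were 0.84 and 1.42.

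Genes that glucocorticoids repress were mostly silent in these cells. Of 17 measured, 5 were above background and 0 called, with a median of 0.0011. The 5 above background had a median of -0.19, so the median of the list came mostly from genes at background. An unadjusted p under 0.05 by limma was reached by 1 member in the higher direction and by 2 in the lower, beside 2.53% and 2.14% of all genes. CCL2, a monocyte chemokine, was the member that PR-B lowered, by -2.19 in WT and -2.53 in KR cells. It read 9.82 and 9.90 with R5020 in PR-null cells and 9.90 and 9.77 with vehicle, and the groups overlapped. Of 12 genes induced by mineralocorticoids, 8 were above background in PR-null cells. In WT cells 4 of the 12 were called higher and in KR cells 5, beside 3.3% and 2.7% of all genes. In PR-null cells 0 were called and the median of the 12 was 0.069. That median was -0.0035 without R5020 replicate 1 and -0.038 without vehicle replicate 2.

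Androgen-induced genes were read in the same way. Of 33 measured, 18 were above background, 0 were called and the median was -0.038. In WT cells 6 were called higher and 1 lower, beside 3.3% and 2% of all genes. In KR cells 5 were called higher and 2 lower, beside 2.7% and 1.38% of all genes. NDRG1, a stress- and androgen-responsive gene, read 10.36 and 10.47 with R5020 in PR-null cells, against 10.58 and 10.64 with vehicle, a difference of -0.19 (-0.41 to 0.03). It rose by 1.40 in WT and 2.31 in KR cells. CLDN8, a tight junction claudin, differed by -0.09 in PR-null cells and by 1.45 and 1.32 in WT and KR cells. PMEPA1, which restrains TGF-beta signaling, differed by 0.08 in PR-null cells and fell in WT and KR cells (-1.36 and -0.87). KLK3 and KLK2, the genes of prostate specific antigen and a related protease, were at background in PR-null cells. HPGD, a prostaglandin dehydrogenase, was the member with an unadjusted p under 0.05, at 5.82 and 6.03 with R5020 and 5.53 and 5.77 with vehicle, all 4 values under the background limit.

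**Figure D4:**
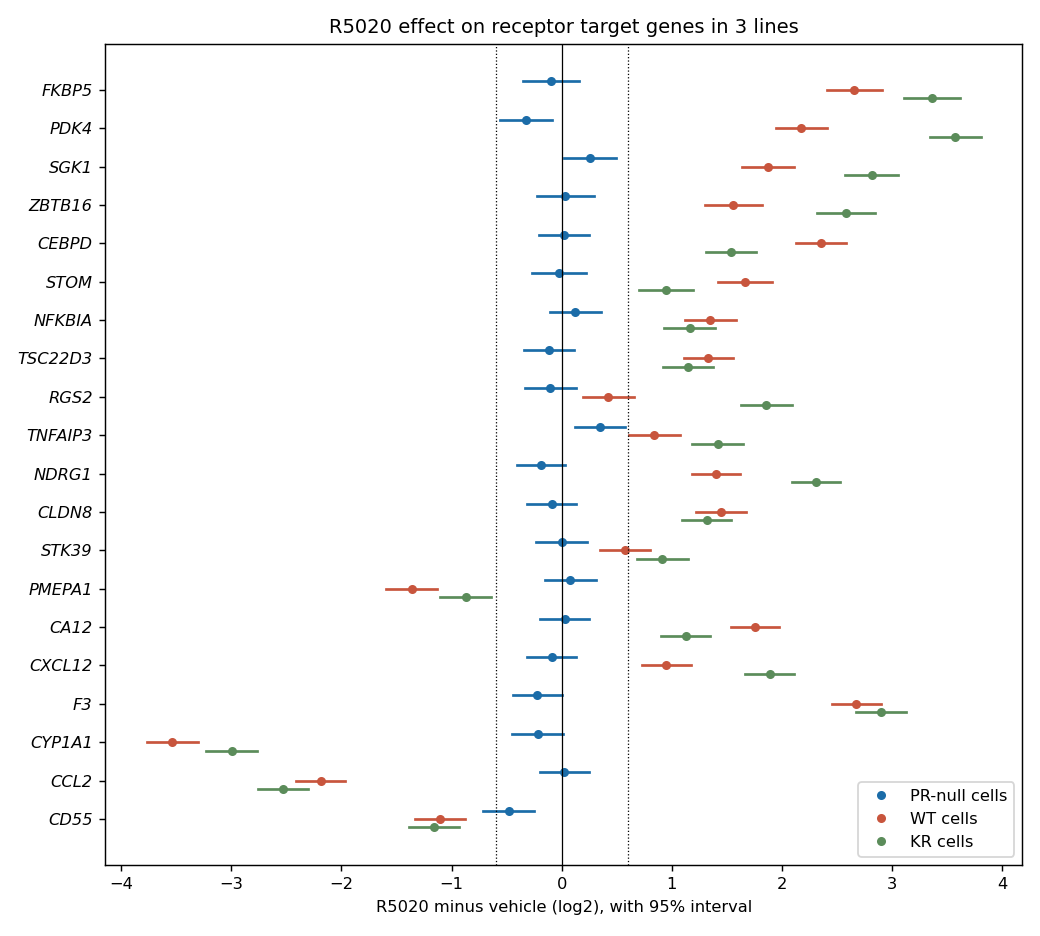
R5020 minus vehicle difference (log2, horizontal axis) with its 95% interval in PR-null, WT and KR cells for 20 target genes, with dotted lines at 0.6 either way. The PR-null points lie between -0.48 (CD55) and 0.35 (TNFAIP3), while FKBP5 lies at 2.66 in WT and 3.36 in KR cells and CYP1A1 at -3.53 and -3.00.

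Targets of the remaining receptors were not called either. Of 32 estrogen-induced genes measured 23 were above background, 0 were called, and the median was 0.025. GREB1, an estrogen receptor coactivator that PR-B also induces, read 6.09 and 5.79 with R5020 in PR-null cells and 5.55 and 5.73 with vehicle, near or under the background limit, a difference of 0.30 (0.06 to 0.54). Its remaining 3 probes differed by -0.22 to 0.08. RET, a receptor tyrosine kinase, read 6.49 and 6.67 with R5020 and 6.34 and 6.21 with vehicle, with both R5020 arrays higher (0.31). CA12, a carbonic anhydrase, rose by 1.75 in WT cells and 1.13 in KR cells and differed by 0.03 in PR-null cells. CXCL12, a chemokine, gave 0.95, 1.89 and -0.09 in WT, KR and PR-null cells, and HSPB8, a small heat shock protein, 0.91, 0.48 and -0.10. No member was called among 12 targets of the pregnane and androstane receptors (median -0.129), 15 of the vitamin D, retinoid and thyroid hormone receptors (0.059, 8 above background) or 14 of PPAR and LXR (-0.0051, 12 above background). The PPAR and LXR median lay between -0.018 and 0.046 with 1 array left out. Of the pregnane and androstane receptor targets 3 were above background, the export pump gene ABCC2 (0.21), ALAS1 of heme synthesis (0.20) and THRSP, a regulator of lipid synthesis (-0.19), so that the median of that list came mostly from genes at background. KLF9, a Kruppel-like factor, differed by 0.07 and PLIN2, a coat protein of lipid droplets, by -0.20.

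The aryl hydrocarbon receptor genes included strong PR-B responses. CYP1A1, a cytochrome P450 of xenobiotic metabolism, read 8.94 and 9.11 with R5020 in PR-null cells and 9.39 and 9.09 with vehicle, with overlapping groups (-0.22, interval -0.45 to 0.01). It fell in WT cells (-3.53, adjusted p = 3.40e-27) and in KR cells (-3.00, adjusted p = 1.46e-24). CYP1B1, a related enzyme read 12.58 and 12.56 with R5020 and 12.55 and 12.47 with vehicle in PR-null cells (0.06) and fell in WT and KR cells (-0.71 and -2.20). TIPARP, which turns the same receptor off, differed by -0.08 and rose by 2.02 in WT and 2.16 in KR cells. None of the 10 genes of the list was called in PR-null cells.

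Immediate early genes would report rapid signaling from the membrane, although 6 h is late for many of them. Of 24 such genes and MAPK feedback genes measured, 20 were above background, 0 were called and the median was 0.0025. MYC read 7.66 and 7.50 with R5020 and 7.63 and 7.48 with vehicle, whereas it rose by 0.89 in WT and 1.16 in KR cells. JUND, an AP-1 subunit, read 12.48 and 12.56 with R5020 and 12.18 and 12.31 with vehicle, with both R5020 arrays higher (0.27). ETV4, an ETS factor downstream of MAPK, differed by 0.23 in the same direction. ATF3, JUN and JUNB differed by -0.03, -0.05 and -0.11.

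The genes that PR-B regulates were then followed into PR-null cells. A total of 358 genes were called higher by R5020 in both WT and KR cells, at a median of 1.06 in WT and 1.03 in KR cells. In PR-null cells the median of the 358 was 0.022, with a range of -0.33 to 0.35, and all 358 intervals lay inside 0.6. Of the 358, 300 were above background in PR-null cells. For a gene at background a narrow interval says little of the transcript. The 194 genes called lower in both lines, at a median of -1.06 in WT and -0.86 in KR cells, had a median of 0.0035 in PR-null cells and a range of -0.48 to 0.32. For 193 of them the interval lay inside 0.6, and 193 were above background in PR-null cells. Of the 358 genes 212 (59.2%) were above 0 in PR-null cells, beside 51.2% of all genes, and 94 of the 194 were below 0. The median of the 358 was -0.00057 without vehicle replicate 1 of PR-null cells and 0.033 without vehicle replicate 2, so its sign rested on 1 array. An unadjusted p under 0.05 was reached in the PR-B direction by 9 of the 358 and 4 of the 194, and in the opposite direction by 6 and 9. Of all genes 2.53% were higher and 2.14% lower at that p. By size of the PR-B response, the 26 genes with a mean effect over 2 in the PR-B lines had a median of -0.031 in PR-null cells, and the 177 genes between 1 and 2 a median of 0.020.

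Across the 11468 genes above background, the R5020 effects of PR-null and WT cells correlated at 0.0078 and those of PR-null and KR cells at 0.021 (Pearson), while WT and KR effects correlated at 0.774. Genes are not independent replicates, and these values describe the arrays only. The difference between lines was tested with the other PR-B line, so that no array that chose a gene entered the difference tested. The spread behind each test still came from all arrays, including those that chose the gene. Of 661 genes called higher in WT cells, 324 (49.0%) had a lower effect in PR-null than in KR cells by the same rule. Of 541 called higher in KR cells, 341 (63.0%) had a lower effect in PR-null than in WT cells. The effect in PR-null cells was higher than in KR cells for 176 of the 400 genes called lower in WT cells (44.0%), and higher than in WT cells for 190 of the 276 called lower in KR cells (68.8%). Over all genes the effect in PR-null cells was called higher than in WT cells for 426 (2.13%) and lower for 619 (3.09%), 5.21% in all. Relative to KR cells it was higher for 255 (1.27%) and lower for 496 (2.47%), 3.75% in all.

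The genes with the largest PR-B responses show the contrast one by one. PHACTR3, which binds actin and protein phosphatase 1, read 5.47 and 5.37 with R5020 and 5.55 and 5.53 with vehicle in PR-null cells, under the background limit on all 4 arrays, and rose by 5.82 in WT and 5.20 in KR cells. ACOT6, an acyl-CoA thioesterase, read 6.55 and 6.44 with R5020 and 6.67 and 6.61 with vehicle, and rose by 3.69 and 3.65. FOXO4, a forkhead factor, was well above background at 7.67 and 7.84 with R5020 and 7.78 and 7.77 with vehicle, a difference of -0.01 (-0.23 to 0.21), and rose by 3.37 and 3.04. KCNG1, a potassium channel subunit, differed by -0.03 from a level of 9.24 and 9.23 with R5020 and 9.27 and 9.25 with vehicle. The 10 genes with the largest rises lay between -0.33 and 0.13 in PR-null cells, with no upper end over 0.39, and 6 of them were above background. Among the 10 with the largest falls, all above background, VAV3, a guanine nucleotide exchange factor, differed by -0.13, the stem cell factor SOX2 by -0.02, and ELF3, an epithelial ETS factor, by 0.11. EFNB2, an ephrin ligand, differed by 0.26 in the direction opposite to its fall in WT cells (-2.46), and its interval (0.0034 to 0.51) had its lower end just above 0. F3, the tissue factor gene, differed by -0.22 (-0.45 to 0.01) and rose by 2.68 and 2.90. Of 109 genes measured from the list of published progestin targets that the study tabulated, 68 were called higher in WT cells, 64 in KR cells and 0 in PR-null cells, where the median was 0.025. Of all genes 3.3% were called higher in WT and 2.7% in KR cells.

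Promoter letters of the response element were read to show what the PR-B targets carry. In RefSeq promoter windows of GRCh38.p14, 250 bases before to 50 after a start, the half-site TGTTCT occurred on either strand in 14.8% of all 35116 windows. It was found in 43 of 296 genes called higher in both PR-B lines (14.5%) and in 27 of 150 called lower (18%). The palindrome was searched as GNACA and TGTNC with any 3 bases between them, and is able to hold a half-site. It occurred in 0.390% of all windows, in 61 of the 15034 genes (0.406%), and in 0 of the 296 and 0 of the 150. The half-sites before the start with the flanks that fit the window belonged to 30 of the 296 genes. Half-sites are shown because they are the same letters that a glucocorticoid receptor would read. Genes on a single chromosome were passed over. The 4 of the rest with the largest mean effect in WT and KR cells are given below. They were chosen after their values were known, and a match is a description of letters and not a binding site. Capitals mark the half-site, TGTTCT on the strand of the gene or AGAACA where it lies on the other.
SCRG1 (chr4:173399324-173399353, minus strand): ctgtaaagaagcTGTTCTattcgttctcgc
TRNP1 (chr1:26993644-26993673, plus strand): cgctccgccccgTGTTCTataagatgcgcg
STAT5A (chr17:42287330-42287359, plus strand): accccccccaacAGAACAtgcagtcttggc
RASSF2 (chr20:4815194-4815223, minus strand): gctgcgggacccAGAACAgggaaaccaggt
The matches lay 220, 31, 92 and 59 bases before the start in that order.

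All 4 genes responded to PR-B and none differed by more than 0.20 in PR-null cells. SCRG1, a secreted protein first known from scrapie, read 5.46 and 5.48 with R5020 and 5.32 and 5.46 with vehicle in PR-null cells, under the background limit, and rose by 2.63 in WT and 1.92 in KR cells. TRNP1, a nuclear protein, read 7.77 and 7.92 with R5020 and 7.65 and 7.65 with vehicle, with both R5020 arrays slightly higher (0.20, interval -0.03 to 0.42), and rose by 2.00 and 2.15. STAT5A, a factor of prolactin signaling, read 6.29 and 6.16 with R5020 and 6.41 and 6.21 with vehicle, and rose by 1.63 and 2.23. RASSF2, a Ras association domain protein, read 6.22 and 6.32 with R5020 and 6.25 and 6.24 with vehicle, and rose by 2.16 and 1.57.

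The most extreme genes of PR-null cells were listed although none was called, and the values below chose them. The 10 highest by moderated t were higher with R5020 by 0.38 to 0.58 and the 10 lowest had differences of -0.68 to -0.36, at adjusted p values of 0.506 to 0.907. PHLDA2, an imprinted growth regulator, read 8.36 and 8.39 with R5020 and 7.89 and 7.89 with vehicle, a difference of 0.48 (0.24 to 0.72). GATAD1, a chromatin protein, read 6.92 and 6.80 with R5020 and 6.46 and 6.34 with vehicle (0.47). ATP1B3, a subunit of the sodium pump, and PSMB1, a proteasome subunit, differed by 0.39 and 0.38, and the kinase MOK by 0.40. ECE1, TAC3 and ABCC9 (0.46, 0.38 and 0.41) had vehicle values under the background limit. SNF8, an ESCRT-II subunit of endosomal sorting, read 9.06 and 9.02 with R5020 and 9.62 and 9.60 with vehicle (-0.57, interval -0.84 to -0.31). CENPA, the centromeric histone, read 8.69 and 8.63 with R5020 and 9.01 and 9.12 with vehicle (-0.40). EMC7, a membrane insertion factor, TELO2, a partner of PI3K-related kinases, the zinc finger gene ZNF420, GPR158-AS1, MPHOSPH10P1 and the 28S ribosomal RNA RNA28SN5 differed by -0.36, -0.53, -0.37, -0.41, -0.39 and -0.37. Of the 10 highest, 3 had the same sign in WT and 2 in KR cells, and 0 were called there. Of the 10 lowest, 5 and 7 had the same sign.

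CD55, the complement decay accelerating factor, was the one gene among these 20 that PR-B also regulated by the call rule. It read 8.03 and 7.80 with R5020 in PR-null cells, against 8.37 and 8.42 with vehicle, and both R5020 arrays were lower, by -0.48 (-0.71 to -0.26). In WT cells it read 6.40 and 6.56 with R5020 and 7.59 and 7.58 with vehicle, a difference of -1.11. In KR cells it read 6.86 and 7.02 with R5020 and 8.16 and 8.05 with vehicle (-1.16). The difference between the effects was 0.62 relative to WT cells (adjusted p = 0.0104, not under 0.01) and 0.68 relative to KR cells (adjusted p = 0.00548), both with the PR-null arrays that chose the gene. The difference in PR-null cells lay between -0.60 and -0.37 when any of the 4 arrays was left out, and its adjusted p with all arrays was 0.506. CD55 is measured by 1 probe, ILMN_1800540.

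Some of the largest differences rested on a single array. ZDHHC5, a palmitoyltransferase, read 9.42 and 9.54 with R5020 and 8.41 and 9.41 with vehicle, and only vehicle replicate 1 stood apart. Its difference was 0.58 with all arrays, 1.08 without vehicle replicate 2 (adjusted p = 3.22e-05) and 0.078 without vehicle replicate 1. The probe for MIR1282 read 5.94 and 5.95 with R5020 and 7.03 and 6.23 with vehicle, again with vehicle replicate 1 apart. Its difference was -0.68 with all arrays, -1.08 without vehicle replicate 2 (adjusted p = 0.000391) and -0.28 without vehicle replicate 1. IFIT1, an antiviral protein induced by interferon, read 7.86 and 8.69 with R5020 and 7.68 and 7.88 with vehicle. Its difference was 0.49 with all arrays and 0.91 without R5020 replicate 1 (adjusted p = 0.00708), and 0.078 without R5020 replicate 2. Its other probe differed by -0.03. ZDHHC5, MIR1282 and IFIT1 were the 3 calls that any alternative gave in PR-null cells, and each then rests on a single array in 1 of its groups, with the spread taken from the rest.

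Interferon-stimulated genes as a list had a median above that of all genes in PR-null cells with R5020, and 1 array carried much of it. The median of 29 measured genes was 0.10, beside 0.0032 over all genes. Of the 29, 5 had an unadjusted p under 0.05, all 5 higher, beside 2.53% of all genes, and 0 were called. Without R5020 replicate 2 the median was 0.017 and 0 genes had an unadjusted p under 0.05. IFI27 read 7.26 and 8.24 with R5020 and 7.26 and 7.30 with vehicle, so that R5020 replicate 2 alone was high. MX1 read 9.32 and 9.77 with R5020 and 9.28 and 9.03 with vehicle, ISG15 7.40 and 7.73 against 7.16 and 7.27, and IFI6 11.28 and 11.55 against 11.23 and 11.03. In KR cells R5020 replicate 2 was the higher one as well, with IFI27 at 6.11 and 7.32, MX1 at 7.16 and 7.95, ISG15 at 6.07 and 6.63 and IFI6 at 10.10 and 10.73. In WT cells IFI27 read 5.56 and 5.86 with R5020. With vehicle the genes were already higher in PR-null cells than in WT and KR cells, IFI27 by 1.49 and 1.22 and MX1 by 1.13 and 1.90. The part of replicate 2 in the list's shift beyond the values without it was not tested. HERC5, the member of the list that PR-B raised (1.43 in WT and 1.31 in KR cells), differed by -0.08 in PR-null cells.

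**Figure D5:**
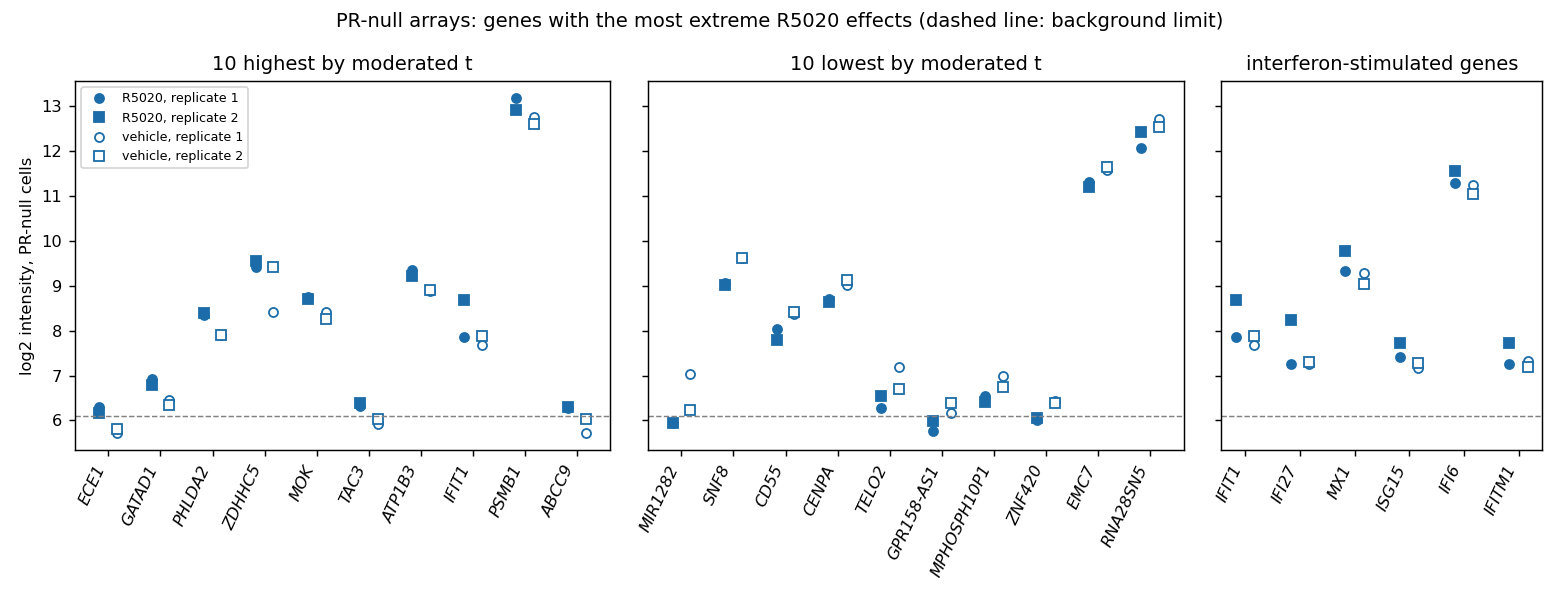
Log2 intensity (vertical axis) on the 4 PR-null arrays for the 10 genes with the highest and the 10 with the lowest moderated t and for 6 interferon-stimulated genes, filled for R5020, open for vehicle, circles for replicate 1 and squares for replicate 2, with a dashed line at the background limit of 6.09. ZDHHC5 and MIR1282 have vehicle replicate 1 apart at 8.41 and 7.03, and the interferon genes have R5020 replicate 2 apart, as IFI27 at 8.24.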

How the data were processed

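The authors deposited log2 intensities, made from Illumina HT-12v4 signals with lumi and quantile normalized; the version is not given in the sources used here. No further normalization was applied. A table of non-normalized signals heads its 12 signal columns with codes found in none of the labels, so neither they nor the detection p-values entered any step. Quantile normalization gives every array the same distribution, so a shift of all transcripts at once cannot be seen.

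Of 47231 probes, 30113 carried 1 gene symbol, 8 several and 17110 none, and the identifier of 30074 was found in the RefSeq table. For each gene the probe with the highest mean over all arrays stood for it. Limma 3.58.1 in R 4.3.3 fitted 1 mean per group to all 12 arrays (residual degrees of freedom 6, prior 37.1), with empirical Bayes moderation. Benjamini-Hochberg adjustment ran over every probe of each contrast. Intervals are 95% intervals of the moderated t. The fit was tested on simulated data. Summaries used pandas 2.3.3.

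Genes were named by rule: PGR, receptors above background on both arrays of a PR-null group (with NR3C1 and NR3C2 added), the 10 highest and 10 lowest by moderated t without LOC symbols, the 10 strongest in each direction in WT and KR cells, the strongest members of each target list, and genes called under any alternative. Other genes were named because a list count or a promoter match singled them out after their values were seen. The 20 lists held 511 entries, of which 471 were measured. Members and lists were chosen with earlier results of these data known. The study's methods supplied the thresholds. Replicate numbers were checked for pairing: the same-numbered arrays deviated from their group means with correlations of -0.0468 to 0.0814 over 15 pairs of groups and 12587 probes, so they were not used as a block. Alternatives were the replicate block, PR-null arrays alone, normexp background correction (offset 50, on the deposited values with the log undone, then quantile normalization again), a filter on dim probes, the mean of all probes of a gene, a variance prior with trend, adjustment over genes only, a looser threshold, the 99th percentile limit and leaving out each array.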

Additional observations from a re-analysis of the deposited data

Results flagged for a closer look

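The R5020 effect differed between PR-null cells and the PR-B lines by a test of the difference itself, the limma contrast of both effects. Genes with a higher effect in PR-null than in WT cells numbered 426, and 619 had a lower one. Relative to KR cells the counts were 255 and 496. The values that follow are PR-null minus WT differences of R5020 effects (log2) of named genes for which the difference from WT and the difference from KR cells both passed the call rule. Most of these genes were named for their effects in WT and KR cells, so the values describe the contrast and are no independent evidence of it.

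Among the receptor genes the differences were PGR (0.99), ESR1 (1.23), VDR (-2.28), RXRA (0.62) and PPARG (0.76). PGR is the one whose effects in the PR-B lines had opposite signs (-0.97 in WT and 0.78 in KR cells). The PR-B lines carry PR cDNA on the vector, and PGR was under the background limit on all PR-null arrays. The part of that cDNA in the PGR values was not tested.

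Genes with the largest rises in the PR-B lines gave PHACTR3 (-5.94), ARMC12 (-3.24), ACOT6 (-3.84), ADGRA2 (-3.84), TRAF5 (-3.40), FOXO4 (-3.39), UTS2B (-2.53), FKBP5 (-2.75), KCNG1 (-2.95) and PDK4 (-2.50). Those with the largest falls gave CYP1A1 (3.32), VAV3 (2.96), SOX2 (3.14), CCL2 (2.21), EFNB2 (2.71), TESK2 (2.24), BCL3 (2.26), ATXN1-AS1 (2.27), ELF3 (2.67) and CCNO (2.01).

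The glucocorticoid- and androgen-induced genes gave SGK1 (-1.62), ZBTB16 (-1.52), CEBPD (-2.33), STOM (-1.69), NFKBIA (-1.23), TSC22D3 (-1.45), NDRG1 (-1.59), CLDN8 (-1.54) and PMEPA1 (1.44). Members of the other lists gave CA12 (-1.73), CXCL12 (-1.04), PLIN2 (-1.15), TIPARP (-2.10), CYP1A2 (2.55), CYP1B1 (0.77), MYC (-0.87), F3 (-2.90) and HERC5 (-1.51). GATAD1 (0.67), PHLDA2 (0.70) and MOK (0.61) were named for their high values in PR-null cells, and their effects were below 0 in both PR-B lines without a call there.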

How the results depend on the processing

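In PR-null cells 0 genes were called in either direction under the replicate block, PR-null arrays alone, normexp correction, the dim-probe filter, the mean of all probes, the other variance prior, adjustment over genes only and an adjusted p under 0.05 with no limit on the difference. Leaving out 1 array gave 0 to 1 genes called higher and 0 to 1 lower: 1 higher without R5020 replicate 1, and 1 higher and 1 lower without vehicle replicate 2. Genes with an unadjusted p under 0.05 numbered 866 to 1094 with an array left out and 586 with dim probes filtered out, where fewer genes are tested. An adjusted p under 0.05 with no limit on the difference called 1501 genes higher and 1316 lower in WT cells, 1105 and 886 in KR cells, and 665 and 435 with a higher effect in PR-null than in WT and KR cells. The replicate number as a block left the numbers almost as they were, with 944 genes at an unadjusted p under 0.05 in PR-null cells and 661 and 542 called higher in WT and KR cells, and it changed no call of a named gene in PR-null cells. The PR-null groups of the same number correlated at -0.0156. The median half-width was 0.197 to 0.229 under the alternatives that kept all 4 arrays and 0.278 to 0.282 without 1 of them. Of the values that answer a comparison 187 were within 1.5 times or 1 SD (0.112) of the value with all arrays and 10 were not. For named genes 488 differences were within 1 SD and 82 were not, and none turned a call around. Intervals cover the spread between 2 arrays a group, pooled over groups and drawn toward that of all probes, and no other source of error.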
